A study of Basiliscus vittatus and Chrysopelea ornata and Dasypeltis gansi with 10 samples.

Results

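The nuclear transport receptors of the importin-beta family were examined in the adult cerebellum of 10 squamate species. They comprise 7 of the 630 one-to-one orthologs in the expression table, namely importin-5, importin-7, importin-9, transportin-2, exportin-1, exportin-7 and exportin-T. They were taken by protein name, as every gene named importin, exportin or transportin. Genes named as nuclear pore proteins or nucleoporins were sought by the same rule and none was found among the 630, so the set holds soluble carriers and no part of the pore itself. The letters of transportin also occur in 8 calcium-, copper- and phospholipid-transporting ATPases, which carry ions or lipids across membranes and were left out.

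Proteins and RNAs enter and leave the nucleus through nuclear pores, and large cargo needs a carrier. The carriers of the importin-beta family bind their cargo on one side of the pore and release it on the other, with the direction set by the small GTPase Ran: importins and transportins release cargo when they meet Ran-GTP inside the nucleus, and exportins need Ran-GTP to take cargo out. Neurons depend on this traffic to move transcription factors, histones, ribosomal proteins, RNA-binding proteins and tRNAs, and some importins also carry signals from the axon to the nucleus.

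RNA was sequenced from wild-type adult cerebella, with 1 column of values per species. The 6 limbless species were the lateral undulation species Pantherophis guttatus, Chrysopelea ornata (both colubrid snakes) and Pseudopus apodus (a legless anguid lizard), the snakes Dasypeltis gansi (a colubrid) and Python regius (a pythonid) using other movements, and the facultatively burrowing boid Eryx colubrinus. The 4 quadrupedal species were the lizards Pogona vitticeps (an agamid) and Lepidothyris fernandi (a skink, labelled Mochlus fernandi in the sample records), both terrestrial, the arboreal chameleon Trioceros jacksonii and the facultatively bipedal Basiliscus vittatus (a corytophanid). No sex is stated in the labels. P. apodus is the only limbless species that is no snake, so the grouping by limbs and that by lineage differ in this species alone. The study's list of species also gives slow lateral undulation as the movement of the sand boa E. colubrinus, whereas D. gansi moves by concertina and P. regius by rectilinear crawling, so the lateral undulation group is set by locomotor mode. Expression is given as FPKM, the number of fragments assigned to a transcript divided by its length and by the mapped fragments of the library.

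The spread within a species is unknown, since the sequencing duplicates mentioned in the methods appear as a single value, so species served as replicates and every p-value measures the spread between species. Shared ancestry is part of that spread but was not modelled, and related species counted as independent. The methods give the number of reads only as an average over species, so the depth of each library is not known here and no counting interval is given. L. fernandi had the lowest sum over the 630 genes (6289 FPKM) and the lowest median (5.24 FPKM), and E. colubrinus the highest of both (15880 and 19.8 FPKM). Levels are therefore also given relative to the other genes of the same species. The sums of 3 Purkinje cell markers ran from 23.7 (P. apodus) to 193 FPKM (D. gansi), those of 3 markers of granule and other neurons from 59.0 to 410 FPKM, and those of 4 genes listed as glial from 45.4 to 145 FPKM. Single genes made up much of some sums. Inositol 1,4,5-trisphosphate receptor type 1 gave 156 of the 193 FPKM in D. gansi, and neurofascin 88.7 of the 99.4 FPKM listed as glial in P. apodus. No marker was at 0, but neither was any of the 630 genes in any species. The lowest marker values were 0.5 FPKM for the T-type calcium channel subunit alpha-1G in B. vittatus and 0.51 FPKM for fibroblast growth factor receptor 3 in P. apodus. In whole tissue, fewer cells of a type and less RNA per cell cannot be told apart.

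All 7 receptors had a value in all 10 species, which the choice of orthologs shared by all 10 species requires. None of the 70 values lay at or below 0.5 FPKM, the level that the authors required in at least 1 species, and all 7 had a mean above 5 FPKM. Their means ran from 8.98 FPKM for exportin-7 to 18.6 FPKM for transportin-2, with a median of 13.2 FPKM against 14.5 FPKM for all 630 genes. Together they held between 0.452% of the summed FPKM in D. gansi and 1.01% in E. colubrinus.

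**Figure D1:**
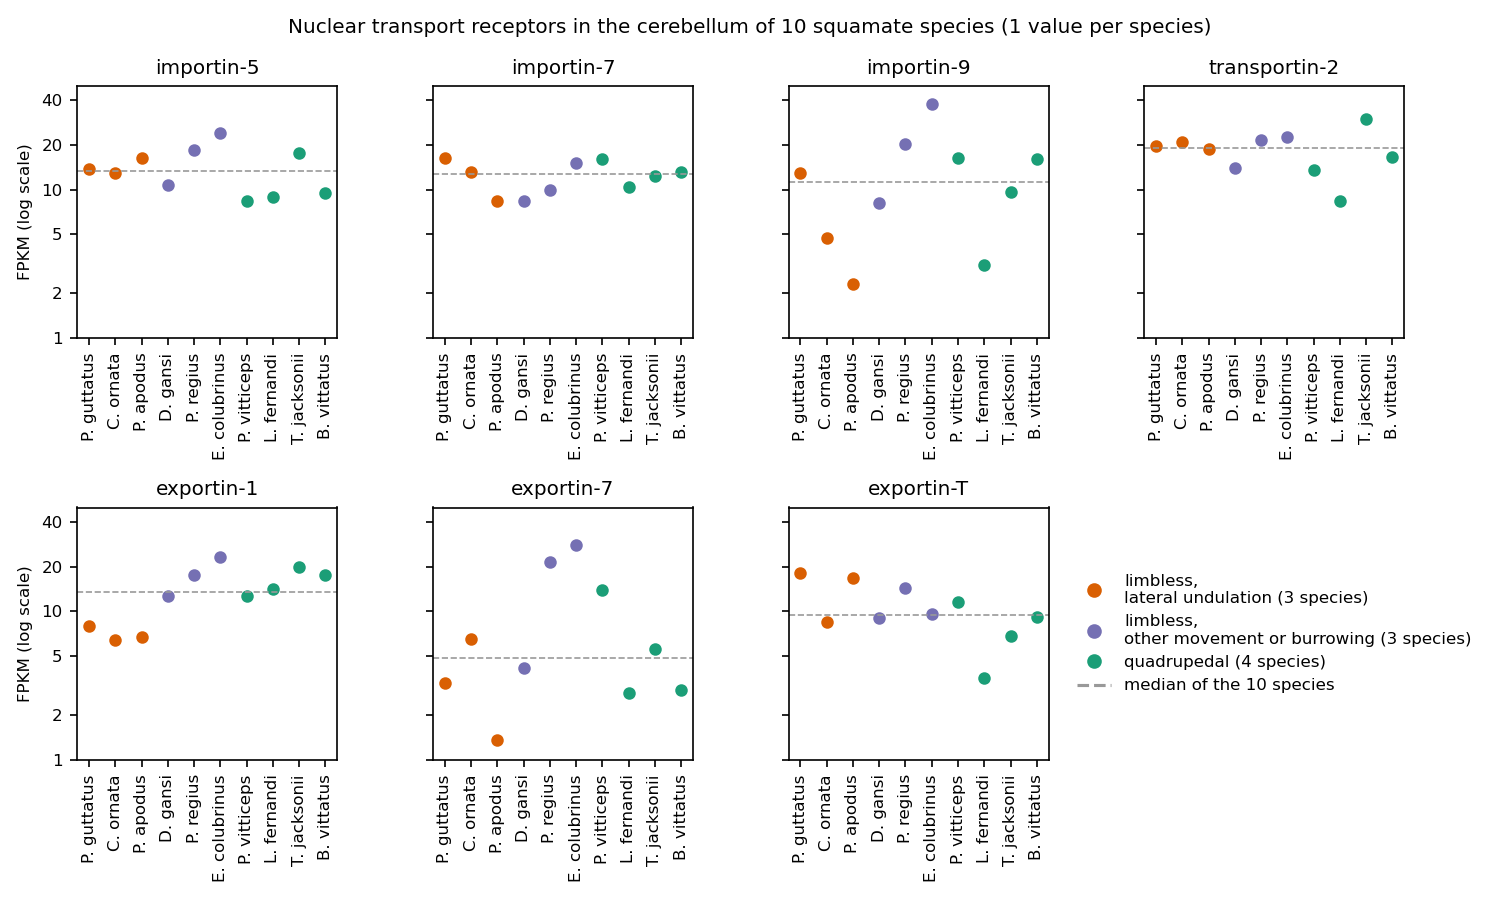
FPKM on a log scale of the 7 nuclear transport receptors in each of the 10 species, 1 point per species, coloured by locomotor group, with the median of the 10 species as a dashed line. Importin-7 stayed between 8.36 and 16.4 FPKM, whereas exportin-7 ran from 1.36 to 27.8 FPKM, and the 3 lateral undulation species were the lowest for exportin-1.

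Among the importers, transportin-2 was the most abundant. Transportin-2 is a close relative of transportin-1, which imports RNA-binding proteins such as hnRNP A1. Its level was 19.7 FPKM in P. guttatus, 20.8 in C. ornata, 18.7 in P. apodus, 14.0 in D. gansi, 21.7 in P. regius, 22.7 in E. colubrinus, 13.5 in P. vitticeps, 8.39 in L. fernandi, 30.2 in T. jacksonii and 16.6 in B. vittatus. The chameleon was highest and the skink lowest, while the other 8 species lay between 13.5 and 22.7 FPKM. It was the most abundant receptor in 6 species, and within each species it stood between percentile 55.2 and percentile 80.5 of the 630 genes, above the middle in all 10.

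Importin-5 imports ribosomal proteins and histones. Its level was 13.8 FPKM in P. guttatus, 13.0 in C. ornata, 16.5 in P. apodus, 10.7 in D. gansi, 18.5 in P. regius, 24.2 in E. colubrinus, 8.33 in P. vitticeps, 8.88 in L. fernandi, 17.7 in T. jacksonii and 9.43 in B. vittatus. Among quadrupedal species the chameleon stood apart, with the other 3 between 8.33 and 9.43 FPKM.

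Importin-7 imports ribosomal proteins and, together with importin-beta, linker histones. Its level was 16.4 FPKM in P. guttatus, 13.1 in C. ornata, 8.36 in P. apodus, 8.41 in D. gansi, 10.0 in P. regius, 15.1 in E. colubrinus, 16.2 in P. vitticeps, 10.4 in L. fernandi, 12.3 in T. jacksonii and 13.1 in B. vittatus. The highest species exceeded the lowest only 1.96-fold, and the SD of log2(FPKM + 1) across species, 0.33, was the 3rd smallest of all 630 genes. That rank depended on the scale: once species were centred on their median log2 level, the SD was 0.48 and the 58th smallest.

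Importin-9, a carrier of core histones and of actin, was far more variable. Its level was 13.0 FPKM in P. guttatus, 4.70 in C. ornata, 2.30 in P. apodus, 8.20 in D. gansi, 20.4 in P. regius, 38.1 in E. colubrinus, 16.5 in P. vitticeps, 3.12 in L. fernandi, 9.70 in T. jacksonii and 16.0 in B. vittatus. The sand boa was highest and the legless lizard lowest, a 16.6-fold range. Within the species, importin-9 stood at percentile 82.5 of the 630 genes in E. colubrinus and at percentile 16.5 in P. apodus.

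Among the exporters, exportin-1 (CRM1) carries proteins with a leucine-rich export signal and several classes of RNA. Its level was 7.92 FPKM in P. guttatus, 6.43 in C. ornata, 6.68 in P. apodus, 12.7 in D. gansi, 17.6 in P. regius, 23.1 in E. colubrinus, 12.7 in P. vitticeps, 14.2 in L. fernandi, 19.99 in T. jacksonii and 17.7 in B. vittatus. The 3 species of the lateral undulation mode were lowest and did not overlap the other 7 species. It was the most abundant receptor in L. fernandi and B. vittatus.

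Exportin-7, a carrier of broad specificity known in mice for its part in red cell maturation, had the widest range of the 7. Its level was 3.29 FPKM in P. guttatus, 6.49 in C. ornata, 1.36 in P. apodus, 4.12 in D. gansi, 21.4 in P. regius, 27.8 in E. colubrinus, 14.0 in P. vitticeps, 2.83 in L. fernandi, 5.60 in T. jacksonii and 2.93 in B. vittatus. The python, the sand boa and the bearded dragon stood above all others, and E. colubrinus exceeded P. apodus 20.5-fold. It was the least abundant receptor in 6 species, at percentile 4.76 of the 630 genes in P. guttatus and at percentile 69.7 in E. colubrinus.

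Exportin-T exports mature tRNAs. Its level was 18.1 FPKM in P. guttatus, 8.51 in C. ornata, 16.8 in P. apodus, 8.94 in D. gansi, 14.3 in P. regius, 9.58 in E. colubrinus, 11.6 in P. vitticeps, 3.56 in L. fernandi, 6.78 in T. jacksonii and 9.20 in B. vittatus. L. fernandi was lowest in FPKM, and without it the SD of log2(FPKM + 1) fell from 0.61 to 0.44. E. colubrinus, the highest species for 4 of the other receptors, was near the middle in FPKM. The order differed relative to the other genes of the same species. There exportin-T was lowest in T. jacksonii (percentile 20.8) and E. colubrinus (percentile 21.9), and highest in P. apodus (percentile 76.3). In L. fernandi it stood at percentile 35.4.

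In order of mean level the receptors were transportin-2 (18.6 ± 5.97 FPKM, SD, n = 10 species), importin-5 (14.1 ± 5.10), exportin-1 (13.9 ± 5.73), importin-9 (13.2 ± 10.6), importin-7 (12.3 ± 2.99), exportin-T (10.7 ± 4.51) and exportin-7 (8.98 ± 9.07). Every step between neighbours in this order was smaller than the SD of either neighbour across species. That SD leaves out that the receptors were measured in the same species, and the order was not tested. Transportin-2 exceeded importin-5 in all species but E. colubrinus (22.7 against 24.2 FPKM) and L. fernandi (8.39 against 8.88 FPKM). The 4 importers summed to 1.33 times the 3 exporters in P. regius and to 2.41 times in C. ornata, with the other 8 species in between. A sum over more genes is larger by construction, and only its variation between species is of interest.

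**Figure D2:**
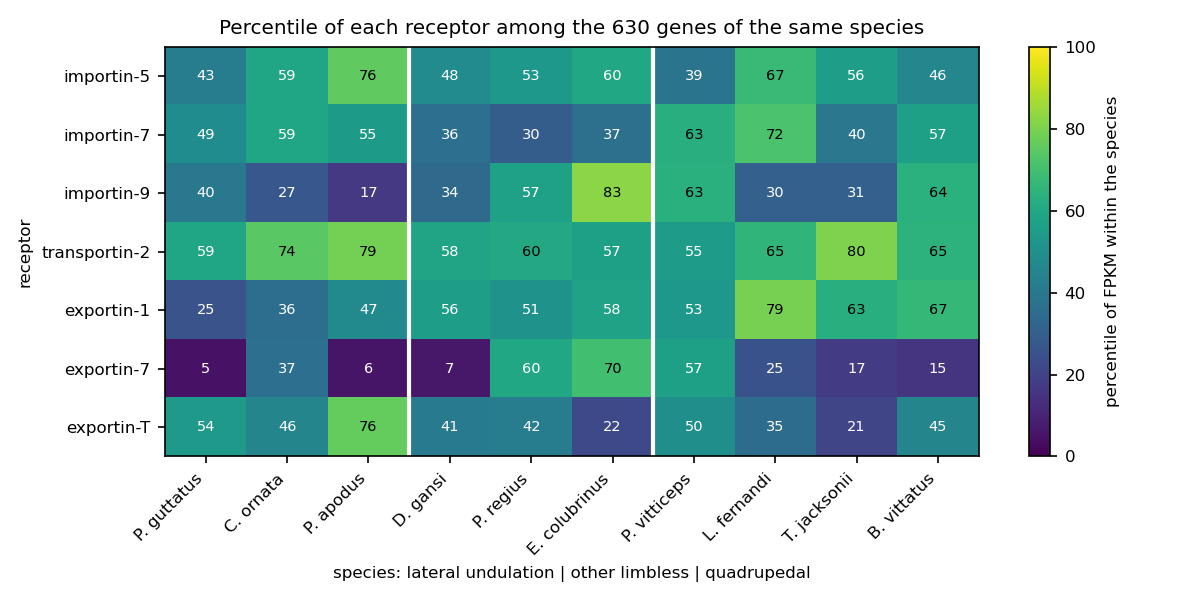
Percentile of each receptor's FPKM (rows) among the 630 genes of the same species (columns), a measure that does not depend on the scale of a library. Transportin-2 lay above percentile 55 in every species, and exportin-7 ran from percentile 4.76 in P. guttatus to percentile 69.7 in E. colubrinus.

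Most receptors varied less between species than the typical gene. Importin-5, importin-7, transportin-2, exportin-1 and exportin-T, 5 of 7, had an SD of log2(FPKM + 1) across species between 0.33 and 0.61, below the median of 0.94 over all 630 genes. Importin-9 (1.12) and exportin-7 (1.19) lay above it. Transportin-2 and importin-5 had the 23rd and 25th smallest SD of the 630 genes, exportin-1 the 74th and exportin-T the 75th. The median range was 3.59-fold for the 7 receptors and 10.3-fold for all genes.
After centring, 6 of the 7 receptors lay below the median SD of all genes, which was then 0.83. Transportin-2 was the steadiest (0.38, the 15th smallest of 630), followed by importin-5 (0.46) and importin-7 (0.48). The SD of importin-9 dropped to 0.72 and that of exportin-7 to 0.92, and only exportin-7 remained above the median. These are descriptions of 10 libraries, and the small spread of the receptors was not tested against other sets of genes.

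**Figure D3:**
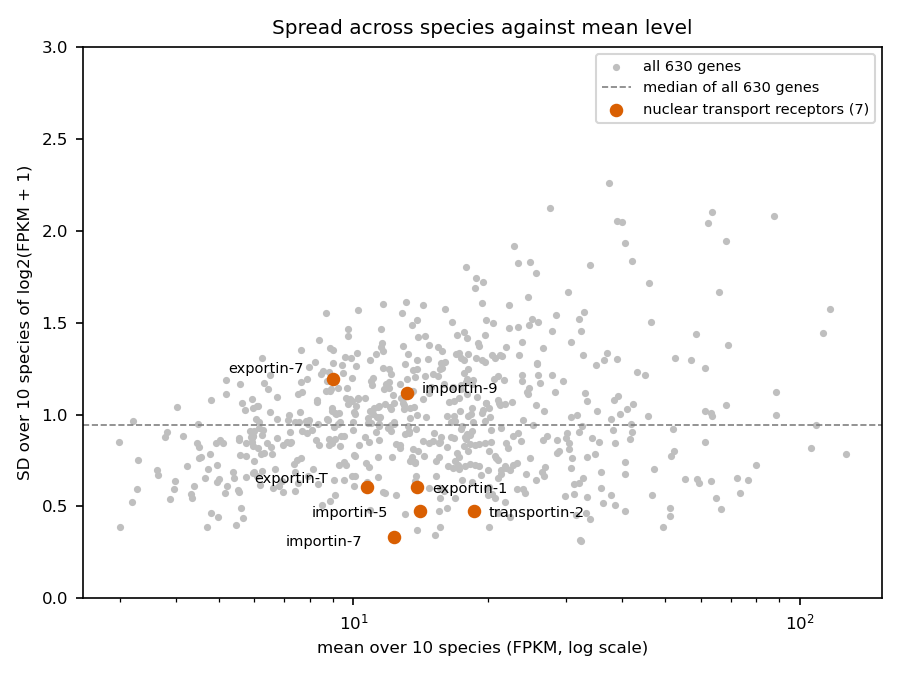
SD across the 10 species of log2(FPKM + 1) against mean FPKM on a log axis, 1 grey point per gene for all 630 genes and orange points for the 7 receptors, with the median SD of all genes (0.94) as a dashed line. Importin-9 and exportin-7 lie above the line and the other 5 receptors between 0.33 and 0.61.

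Whether receptor levels follow the locomotor category was asked by comparing the 6 limbless with the 4 quadrupedal species. No receptor passed limma's test on log2(FPKM + 1) at an adjusted p of 0.05 (Benjamini-Hochberg over 630 genes), where 0 of 630 genes passed (0.0%). At an unadjusted p under 0.05 there were 0 receptors and 62 genes (9.84%) by limma, and 45 genes by the exact rank sum test.
The closest to a difference was exportin-T. Its mean ± SD was 12.7 ± 4.24 FPKM over the 6 limbless and 7.79 ± 3.44 FPKM over the 4 quadrupedal species, which differ by 0.68 on the log2 scale (standard error 0.49, limma adjusted p = 0.754). The difference was 0.34 after centring and 0.40 without L. fernandi. For importin-5 the means were 16.1 ± 4.79 and 11.1 ± 4.44 FPKM, with a difference of 0.52 (95% interval -0.48 to 1.52, limma adjusted p = 0.764), or 0.18 after centring. For exportin-1, lower in limbless species, they were 12.4 ± 6.77 and 16.1 ± 3.30 FPKM, with a difference of -0.48 (95% interval -1.55 to 0.58, limma adjusted p = 0.764). The groups overlapped for all 7 receptors, before and after centring, where 19 of the 630 genes did not overlap (3.02%, or 2.86% after centring).
In all, 5 receptors had a higher and 2 a lower mean log2 level in limbless species, where 71.0% of all 630 genes were higher. Their median difference was 0.30, close to the 0.35 over all genes. After centring, 3 receptors were higher and 4 lower, where 51.3% of all genes were higher (median -0.039, against 0.013 for all genes). The largest difference on that scale was that of exportin-1, at -0.82 (95% interval -1.72 to 0.07, limma adjusted p = 0.545).

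The comparison of the 5 snakes with the 5 lizards answers the same question for lineage, and it shares most of its species with the one above. Again no receptor passed limma's test (0 of 630 genes, 0.0%), and none had an unadjusted p under 0.05, where 85 genes did (13.5%) by limma and 59 by the exact rank sum test. No receptor separated the groups, where 12 of 630 genes did (1.9%, or 0.794% after centring). Of the 7, exportin-7 differed most in the FPKM as deposited. It averaged 12.6 ± 11.2 FPKM over the 5 snakes and 5.33 ± 5.05 FPKM over the 5 lizards (mean ± SD), or 0.98 on the log2 scale (95% interval -0.36 to 2.33, limma adjusted p = 0.486). After centring this was 0.40, less in size than the -0.70 of exportin-1 and the -0.53 of importin-7, and without E. colubrinus it was 0.61. Only the python and the sand boa were high, and the 3 colubrid snakes lay between 3.29 and 6.49 FPKM, within the range of the lizards. Importin-9 averaged 16.9 ± 13.2 and 9.52 ± 6.77 FPKM, a difference of 0.76 (95% interval -0.55 to 2.08, limma adjusted p = 0.547), which was 0.18 after centring and 0.40 without E. colubrinus. Importin-7 averaged 12.6 ± 3.35 and 12.1 ± 2.95 FPKM, a difference of 0.049 (95% interval -0.87 to 0.97).
The receptors were higher in snakes in 6 of 7 cases, where 80.8% of all genes were, with a median of 0.37 below the 0.56 of all genes. After centring 2 of 7 were higher, where 48.9% of all genes were, with a median of -0.21 against -0.015 for all genes.

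**Figure D4:**
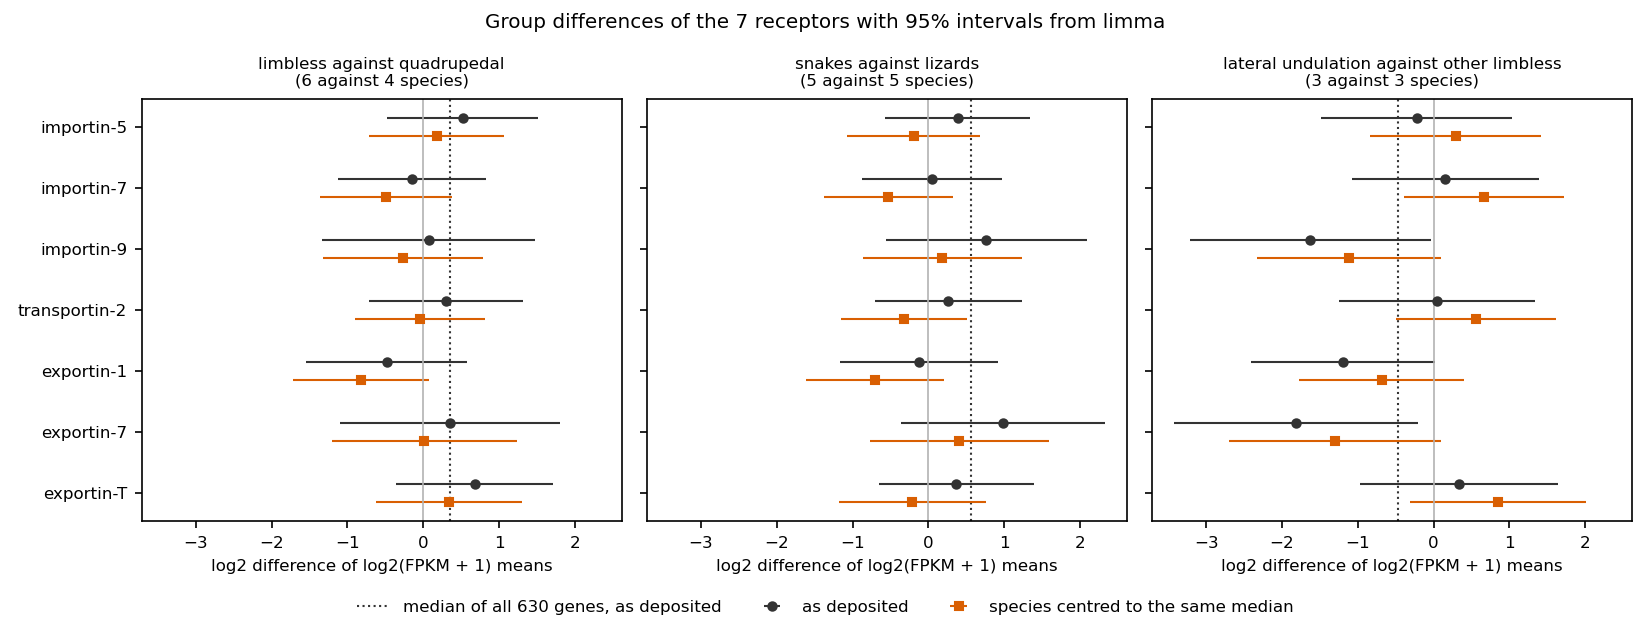
Log2 difference in mean log2(FPKM + 1) of the 7 receptors in 3 comparisons, with 95% intervals from limma, as deposited (black circles) and after median centring of the species (orange squares). The dotted line is the median over all 630 genes as deposited (0.35, 0.56 and -0.48 from left to right), and only the as-deposited intervals of importin-9 and exportin-7 in the right panel exclude 0, before adjustment over the genes.

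Within the limbless species, the 3 of the lateral undulation mode were compared with the other 3, in a fit whose spread was shared with the quadrupedal species. The other 3 include E. colubrinus, whose listed movement is slow lateral undulation. Exportin-7, importin-9 and exportin-1 had lower means in the lateral undulation species, while the other 4 receptors differed by between -0.22 and 0.34 on the log2 scale. No receptor and no other gene passed limma's test at an adjusted p of 0.05 (0 of 630, 0.0%). At an unadjusted p under 0.05, 2 of 7 receptors were lower and none higher, where 87 of 630 genes were lower (13.8%) by limma. With E. colubrinus, P. regius or P. apodus left out in turn, 0 receptors had an unadjusted limma p under 0.05. Without any other single species there were 1 to 3, with 3 without D. gansi or without L. fernandi. E. colubrinus was the highest species for exportin-7, importin-9 and exportin-1. The exact rank sum test of 3 against 3 cannot go below 0.1.
Exportin-7 averaged 3.71 ± 2.59 FPKM in the lateral undulation species and 17.8 ± 12.3 FPKM in the others (mean ± SD over 3 species each), a difference of -1.82 on the log2 scale (standard error 0.77, limma unadjusted p = 0.0291, adjusted p = 0.270). The groups overlapped, since D. gansi had 4.12 FPKM and C. ornata 6.49 FPKM. Importin-9 averaged 6.65 ± 5.59 and 22.2 ± 15.03 FPKM, a difference of -1.62 (standard error 0.76, limma unadjusted p = 0.0461, adjusted p = 0.317), and overlapped likewise. Exportin-1 averaged 7.01 ± 0.798 and 17.8 ± 5.19 FPKM, a difference of -1.20 (standard error 0.58, limma unadjusted p = 0.0524, adjusted p = 0.327).
Exportin-1 was the only receptor whose groups did not overlap in FPKM, as was the case for 110 of the 630 genes in that direction (17.5%). All genes together were lower in the lateral undulation species by a median of 0.48 on the log2 scale. After centring the differences were -1.30 for exportin-7, -1.11 for importin-9 and -0.69 for exportin-1, and none had an unadjusted limma p under 0.05. On that scale exportin-1 was lower and exportin-T and importin-7 were higher without overlap, where 114 genes in either direction did so (18.1%). The neuronal marker sums were mostly lower in the lateral undulation species in FPKM as deposited, where all genes together were lower too. Those of Purkinje cells were 23.7 to 90.9 FPKM in lateral undulation and 80.2 to 193 FPKM in the other limbless species. Inositol 1,4,5-trisphosphate receptor type 1 gave 156 of the 193 FPKM in D. gansi but 1.38 of the 23.7 FPKM in P. apodus. Metabotropic glutamate receptor 1 overlapped, at 18.8 to 30.4 against 22.8 to 27.4 FPKM, and was highest of all species in P. guttatus. The T-type calcium channel subunit alpha-1G did not overlap, at 1.84 to 3.51 against 8.09 to 22.5 FPKM. The sums of granule and other neurons were 59.0 to 140 against 95.8 to 410 FPKM, and reelin gave 321 of the 410 FPKM in D. gansi. Solute carrier family 12 member 5 was highest of all species in P. guttatus (80.2 FPKM). After centring, 1 of the 3 Purkinje markers and 0 of the 3 markers of granule and other neurons had a higher mean in lateral undulation. Of the 4 genes listed as glial, 3 had a higher mean on that scale, where 52.2% of all genes did. The sums of the 4 genes listed as glial overlapped widely, at 52.4 to 125 against 55.9 to 144 FPKM. Neurofascin alone gave 88.7 of 99.4 FPKM in P. apodus and 83.5 of 109 FPKM in D. gansi, but 44.0 of 125 FPKM in P. guttatus. The part of the neuronal markers in the receptor differences was not tested.

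Exportin-1 also separated the 3 lateral undulation species from all 7 others, the quadrupedal species included. It lay between 6.43 and 7.92 FPKM in the former and between 12.7 and 23.1 FPKM in the latter. The highest value was that of E. colubrinus, whose listed movement is slow lateral undulation, so the split is by locomotor mode. The separation remained after centring, with a gap of 0.13 on the log2 scale instead of 0.62, and it joins the colubrids P. guttatus and C. ornata with the lizard P. apodus. It was noticed after the values were seen and is given without a test, and 14 of the 630 genes were lowest in these 3 species in the same way (2.22%, or 3.17% after centring).

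The receptors did not vary as a unit. Of the 21 pairs, 19 had a positive Pearson's r across the 10 species on log2(FPKM + 1), where 74.5% of all pairs of the 630 genes did, with a median of 0.33 against 0.25 for all pairs. After centring 12 pairs were positive, close to the 52.3% of all pairs, and the median was 0.20 against 0.022. The points of each correlation are the same 10 libraries and share their scale, and no p-value is given because pairs were picked from 21.
Importin-5 and transportin-2 were the most alike, with a Pearson's r of 0.73 and a Spearman's rho of 0.66 after centring (0.78 and 0.89 before), although r was 0.40 without P. apodus and P. vitticeps, the species farthest from the median of importin-5. After centring, 1.33% of all pairs of the 630 genes had an r at or above that of this pair, the highest of the 21. Exportin-7 and importin-9 followed, with an r of 0.57 and a rho of 0.42 after centring (0.78 and 0.77 before). Without E. colubrinus and P. regius, the species farthest from the median of exportin-7, that r was 0.29. Leaving them out also narrows the range of exportin-7, so how far the relation rested on them was not tested. Both receptors were also high in P. vitticeps, which was kept. Importin-9 and transportin-2 ran opposite to each other after centring (r of -0.75, rho of -0.76, and -0.86 without E. colubrinus and B. vittatus) but not before (r of 0.37), so their relation changes sign with the scale.

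For no receptor was the most similar gene of the table another receptor, but receptors were only 7 of the 630 genes. In order of likeness, the nearest receptor came 5th for transportin-2, 10th for importin-5, 21st for exportin-7 and 26th for importin-9. It came 126th for exportin-T, 150th for exportin-1 and 151st for importin-7. By Pearson's r across the 10 species after centring, the most similar genes were tau-tubulin kinase 2 for importin-5 (0.86), unconventional myosin-X-like for importin-7 (0.86), lysine-specific demethylase 4A for importin-9 (0.82), diacylglycerol kinase kappa for exportin-1 (0.89), peroxisome biogenesis factor 1 for exportin-7 (0.84) and utrophin for exportin-T (0.89). For transportin-2 it was signal transducer and activator of transcription 3 (0.85), a transcription factor that shuttles between cytoplasm and nucleus. That gene was lowest in P. vitticeps (7.32 FPKM) and highest in T. jacksonii (24.3 FPKM), as transportin-2 was highest there too. Before centring, r with these genes was 0.34 for importin-7 and 0.60 for exportin-T, and between 0.86 and 0.90 for the other receptors. Each of these genes was picked as the best of all other genes over 10 points, and the values are a description only.

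Other genes of nuclear traffic were read in the same way. The 4 THO complex subunits, which couple mRNA to its export, included THO complex subunit 4 (ALYREF), between 9.18 and 20.03 FPKM, and THO complex subunit 2, lowest in P. apodus (1.56 FPKM) and highest in T. jacksonii (25.04 FPKM). Of the 4, 2 were higher and 2 lower in limbless species, where 71.0% of all 630 genes were higher, and none passed limma's test. After centring, 0 of the 4 were higher (median -0.49), where 51.3% of all genes were. THO complex subunit 2 had the smallest p of the 4 between limbless and quadrupedal species, at -1.23 on the log2 scale (standard error 0.58, limma adjusted p = 0.491). Between lateral undulation and other limbless species it differed by -1.77 (standard error 0.60, limma adjusted p = 0.195). After centring, THO complex subunit 2 differed by -1.57 and -1.25 in these comparisons. Its 3 lowest species, P. apodus (1.56 FPKM), P. guttatus (4.69) and C. ornata (5.81), were those lowest for exportin-1, and its next species, E. colubrinus, had 12.7 FPKM. Both genes are among the 14 of 630 (2.22%) that were lowest in these 3 species. The likeness was noticed after the values were seen and was not tested.
Of the 5 shuttling proteins on the list, none passed limma's test in any comparison. In limbless species 4 were higher and 1 lower, where 71.0% of all 630 genes were higher. After centring, 3 of the 5 were higher, where 51.3% of all genes were. Histone deacetylase 4, which exportin-1 takes out of the nucleus, was lowest in P. apodus (0.58 FPKM) and highest in P. guttatus (53.7 FPKM). It was higher in snakes than in lizards by 2.16 on the log2 scale, without passing the test (standard error 0.77, limma adjusted p = 0.278), and by 1.58 after centring. The glucocorticoid receptor, a cargo of importin-7, had the smallest p of the list between limbless and quadrupedal species (difference -0.60, standard error 0.62, limma adjusted p = 0.764, and difference -0.94 after centring). It was lowest in C. ornata (0.5 FPKM) and highest in B. vittatus (15.5 FPKM). The value of 0.5 FPKM equals the authors' threshold and recurs 30 times in the table, so folds against it are uncertain.
Nesprin-1 and nesprin-2, which anchor the nuclear envelope to the cytoskeleton, and glycine--tRNA ligase and tRNA (cytosine(34)-C(5))-methyltransferase, which act on tRNAs, did not pass either. Glycine--tRNA ligase had the smallest p of its list between lateral undulation and other limbless species, at -1.84 on the log2 scale (standard error 0.64, limma adjusted p = 0.199), or -1.33 after centring. The methyltransferase had the smaller p of both between limbless and quadrupedal species, at 0.89 (standard error 0.46, limma adjusted p = 0.555), or 0.55 after centring. Nesprin-1 differed by -0.48 (standard error 0.56, limma adjusted p = 0.782) in that comparison, or by -0.83 after centring. Its level was lowest in E. colubrinus (34.4 FPKM) and highest in B. vittatus (238 FPKM).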

How the data were processed

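Cerebellar RNA of 10 species was measured as FPKM. By the methods, the authors removed ribosomal RNA, trimmed reads (Trimmomatic), assembled them de novo for each species, inferred orthologs from predicted proteins and estimated FPKM with RSEM. The deposited FPKM are scaled by the authors within each library, and the sources used here give no further scaling between species. No genome was used, so a fragmented or merged transcript changes a value, and no sequences or coordinates are given. The sample labels give the species, by which columns were matched, and the limb and movement category of each species is the study's.

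The following was computed here. Genes were tested with limma 3.58.1 (R 4.3.3, no trend) on log2(FPKM + 1), unfiltered, over all 630 genes with Benjamini-Hochberg adjustment. The pseudocount understates folds of low genes. The fit was tested on simulated data with known differences, drawn independently for each gene and species. The simulation covered limbless against quadrupedal species only, with differences larger in size than those of the receptors in that comparison. A scale shared within a library and the ancestry of the species were not simulated. Alternatives were pseudocounts of 0.1 and 0.5, a minimum mean of 5 FPKM, median centring, quantile normalization, a variance trend, an exact rank sum test, leaving out 5 rows of doubtful or repeated name, and leaving out each species. Percentiles, SDs and correlations used Python 3.11.15, numpy 2.4.6 and scipy 1.17.1. All 7 receptors and the gene most like each of them are named. So is, for every list except the glial one, the gene of smallest p between limbless and quadrupedal species. Other genes and pairs were chosen after their values were seen. The members and lists were chosen with earlier results of these data known.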

Additional observations from a re-analysis of the deposited data

Results flagged for a closer look

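Among 35 combinations of a receptor and a group of species examined for a single value apart from the rest, 1 stood out, and chance gives about 1 in 20. Importin-5 in T. jacksonii (17.7 FPKM) lay apart from the other 3 quadrupedal species (8.33 to 9.43 FPKM), with a gap of 0.840 of the group's range on log2(FPKM + 1) against a critical value of 0.829. Relative to the median gene of each species it was 1.14 in T. jacksonii, 0.893 in B. vittatus, 0.709 in P. vitticeps and 1.70 in L. fernandi, so that it was not apart on that scale.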

How the results depend on the processing

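No paired analysis was possible because each species has a single column and no label pairs species. No receptor was called by limma or the exact rank sum test in any comparison under 18 alternatives. The smallest adjusted p among the receptors ran from 0.522 to 0.916 between limbless and quadrupedal species, from 0.358 to 0.784 between snakes and lizards, and from 0.151 to 0.644 between lateral undulation and other limbless species. The exact rank sum test of 3 against 3 species cannot go below 0.1. Of the 18 alternatives, 11 left exportin-7, 8 importin-9 and 3 exportin-1 at an unadjusted p under 0.05 in the last comparison. Leaving out 1 species at a time moved the count of all genes called from 0 to between 0 and 4 (limbless against quadrupedal), 0 and 2 (snakes against lizards) and 0 and 1 (lateral undulation against others), none of them a receptor. Calls appeared without D. gansi (4, 2 and 1 genes in this order), T. jacksonii (2, 1 and 0), B. vittatus (1, 1 and 0) and P. guttatus (0, 0 and 1).

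Centring and quantile normalization turned the sign of small differences, since the medians of all genes shift by 0.35, 0.56 and -0.48 in the 3 comparisons. Between limbless and quadrupedal species, importin-9 went from 0.072 to -0.27 and -0.14, transportin-2 from 0.30 to -0.039 and -0.067, and exportin-7 from 0.36 to -0.045 under quantile normalization. Between snakes and lizards, exportin-T went from 0.37 to -0.21 and -0.17, importin-5 from 0.38 to -0.20 and -0.15, importin-7 from 0.049 to -0.53 and -0.52, and transportin-2 from 0.26 to -0.32 and -0.28. In the third comparison importin-5 went from -0.22 to 0.29 and 0.19. Without 1 species, the ranges that include both signs were -0.017 to 0.78 for exportin-7 and -0.39 to 0.43 for importin-9 (limbless against quadrupedal), -0.35 to 0.083 for exportin-1 and -0.064 to 0.17 for importin-7 (snakes against lizards), and -0.53 to 0.023 for importin-5, -0.046 to 0.40 for importin-7 and -0.16 to 0.17 for transportin-2 (lateral undulation against others).

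The SD across species went from 0.33 to 0.48 for importin-7 under either scaling, from 1.12 to 0.72 and 0.78 for importin-9, and from 0.48 to 0.36 after quantile normalization for transportin-2. Without 1 species it ran from 0.44 to 0.64 for exportin-T and from 0.34 to 0.50 for transportin-2, both lowest without L. fernandi. The letters importin, exportin or transportin occur in 15 genes, the 8 transporting ATPases included. Their median differences were 0.41, 0.38 and -0.22, against 0.30, 0.37 and -0.22 for the 7 receptors. The depth of each library is not known here, and its effect on these differences was not tested.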
